A study of Drosophila melanogaster with 3 samples.

Results

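Regions of zf30C enrichment whose summit lies in the 3' UTR of a protein-coding gene were examined in *Drosophila melanogaster* embryos. They were taken from the pooled region list of the study. A member is a summit inside an annotated 3' UTR, in no coding exon or 5' UTR, and more than 500 bp from every annotated transcription start. Of the 30000 pooled summits 747 met this rule, in 588 host genes. The rule used annotation only and no measured value. Of the 747, 47 were also in the authors' IDR list, where IDR stands for irreproducible discovery rate, which scores how well the ranking of a region repeats across libraries. These 47 are called 3' UTR peaks here, and the 700 others weaker 3' UTR summits.

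The 3' UTR is the stretch of a messenger RNA between the stop codon and the poly(A) tail, where microRNAs and RNA-binding proteins act on the transcript. Chromatin immunoprecipitation with sequencing (ChIP-seq) does not measure RNA, and it recovers the DNA at which a protein sits. Zinc finger proteins such as zf30C often bind DNA through their fingers at short sequence runs, and transcription factors are best known at promoters and enhancers. A site in the DNA of a 3' UTR may lie near the end of one gene, in an intron of another, or upstream of the next gene.

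The data came from whole embryos of mixed sex aged 0 to 24 h, from a transgenic fly line carrying a stable copy of zf30C fused to GFP at the C terminus. The 3 libraries form a single group, with the labels numbering them as biological replicates, and no second condition was analysed here. The labels name zf30C as the target but also call the libraries an input control, and this contradiction could not be resolved. Whole embryos mix all cell types and stages, so a site used in few cells and a site weak in all cells cannot be told apart. The lists hold a signal value per region and no read counts, so the depth is not known and heights of single regions carry no error.

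The sequence that recurred at these summits was CAGTGT. It was first noticed in a scan that included the 3' UTR peaks, so its frequency in them is a description. The scan was then repeated on the 3520 IDR-list summits outside 3' UTRs alone. There, among all runs of 6 letters on both strands it had the largest excess within 50 bp of the summit over flanks 250 to 350 bp away, with 19.5% of summits against 4.33% of flanks. The lead was narrow: the excess was 15.2 points, against 14.6 for GAAAAA, which is TTTTTC on the other strand (32.0% against 17.4%). Of the 47 3' UTR peaks 20 held it within 50 bp of the summit. The DNA around it is shown for several of these, in order of pooled signal, to let the shared letters be seen. They are a selection and not the strongest with the run: Ppa, at pooled rank 114, is among those not shown. Each line is the strand on which CAGTGT reads, 5′ to 3′, from Release 6 of the genome (dm6), with CAGTGT in capitals.
CkIIbeta, chrX:11800155-11800183, minus strand: aattgttttcctCAGTGTgggccgccctg
mtd, chr3R:5271013-5271041, minus strand: gcttgcccattaCAGTGTtgagtagtttg
CG32767, chrX:5076047-5076075, minus strand: aaccttttctccCAGTGTgtaatttgcct
elav, chrX:512663-512691, minus strand: cttttttgctccCAGTGTattgagccagc
Mob2, chr3L:11523530-11523558, minus strand: gtattttacatgCAGTGTacttggcacag
Hrb27C, chr2L:6928773-6928801, minus strand: tgttcttttgctCAGTGTattcatgtgtg
Tm2, chr3R:15313882-15313910, minus strand: acagattatttaCAGTGTatagataagtg
Phs, chr3L:15624024-15624052, minus strand: caaaaatgcgttCAGTGTatgtaggaaat
CG33307, chr2L:13840042-13840070, plus strand: gcccgtttttccCAGTGTacaagagcgga

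In most of these lines CAGTGT is followed by A, and a stretch rich in T stands before it. The letters next to the run were compared after these sequences had been read, so they are a description. Over the 20 peaks with the run, 15 read CAGTGTA (75%, exact 95% interval 50.9 to 91.3%), and 12 had TTTT within the 12 bases before it (60%, 36.1 to 80.9%), against 1 with TTTT within the 12 bases after it. At the 687 IDR-list summits outside 3' UTRs with the run, 42.6% had TTTT before it, 7.71% after it, and 54.4% read CAGTGTA. At the 1987 matches in 3' UTR DNA that lay over 50 bp from every pooled summit, TTTT was about as frequent before (12.9%) as after (11.2%), and 27.0% read CAGTGTA. At the 76 weaker 3' UTR summits with the run the contrast was smaller, with TTTT before it in 22.4% (13.6 to 33.4%), after it in 9.21% (3.78 to 18.1%), and CAGTGTA in 46.1%. In each of the 3 groups of summits TTTT was more frequent before the run than after it, and these differences were not tested. Runs of T or A were also more frequent near IDR-list summits outside 3' UTRs in general. There, TTTTTT on either strand was within 50 bp of 31.1% of summits, against 20.1% of flanks.

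3' UTR summits were a small part of the list and were seldom strong. The 47 peaks are 6.29% of the 747 members (4.66 to 8.28%), while the IDR list holds 11.9% of all pooled summits. Within each replicate's own list, 3' UTR summits made up 1.32% of the 3567 highest summits and 2.67% of the others in replicate 1, 1.18% and 3.07% in replicate 2, and 1.09% and 2.66% in replicate 3. The share was lower among the highest summits in 3 of 3 replicates, by a mean of -1.60 ± 0.27 percentage points (SD, n = 3; exact two-sided sign-flip test, p = 0.25, the smallest that 3 replicates allow). With starts kept 200 bp or 1000 bp away in the rule for members, the mean difference was -1.65 or -1.22 points. The summits compared with include those close to starts, which the rule left out. The lower share therefore cannot be assigned to 3' UTRs rather than to distance from a start. Pooled signal was what set the IDR list apart, since that list is the top of the pooled list, so signal values of peaks and weaker summits are given without a test. Peaks had a median signal of 302, from 196 to 4406. Weaker summits had a median of 59.7, from 44.3 to 188.

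The strongest 3' UTR peak lay in CG9837 on arm 3R. Its region, chr3R:8807979-8809186, had pooled signal 4406 and pooled rank 18, and signals of 2529, 1155 and 725 in replicates 1, 2 and 3. These put it at ranks 13, 17 and 48 of the replicate lists. It sat 443 bp from the coding side of a 3' UTR of 1419 bp, 1157 bp from the nearest annotated start. No other 3' UTR peak ranked above 114 in the pooled list.

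The next 3 peaks, in Ppa, scf and REG, stood high in every replicate. Ppa encodes an F-box protein, of the kind that selects substrates for ubiquitin ligases, and its summit at chr2R:22686736-22687225 had pooled signal 2255 and ranks 166, 120 and 63 in replicates 1 to 3. It lay 124 bp into a 3' UTR of 2150 bp. scf encodes a calcium-binding protein of the secretory pathway, and its summit at chr3L:1300028-1300676 had signal 2150 and ranks 131, 105 and 172. REG encodes an activator of the proteasome, and its summit at chrX:13214040-13214508 had signal 2036 and ranks 178, 154 and 108. The summits of scf and REG lay 123 bp and 103 bp from the ends of their UTRs, unlike that of Ppa. All 3 ranked in the top 200 of every replicate, with scf highest of them in replicates 1 and 2 and Ppa in replicate 3.

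Below a gap in signal, 8 further peaks made up the 12 strongest. The peak of CG8206 had signal 1179 and ranks 460, 375 and 242, and it lay 31 bp from the end of its UTR. Cam encodes calmodulin, the main intracellular calcium sensor, and its stronger summit had signal 1023 and ranks 505, 460 and 399. The stronger of the CG4004 summits had signal 1009 and ranks 513, 356 and 638. None of these 3 held CAGTGT within 50 bp. The peak in mex1, a gene named for its expression in the midgut, had signal 977 and ranks 681, 369 and 340. CkIIbeta encodes the regulatory subunit of casein kinase 2, and its peak had signal 953 and ranks 561, 464 and 449. The peak in mtd had signal 869 and ranks 589, 550 and 585, the closest agreement among these 8. That of CG32767 had signal 691 and ranks 699, 890 and 809. Inx2 encodes an innexin, a protein of gap junctions, and its peak had signal 642 and ranks 1038, 679 and 686. All 12 were among the 3567 highest regions of each replicate.

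**Figure D1:**
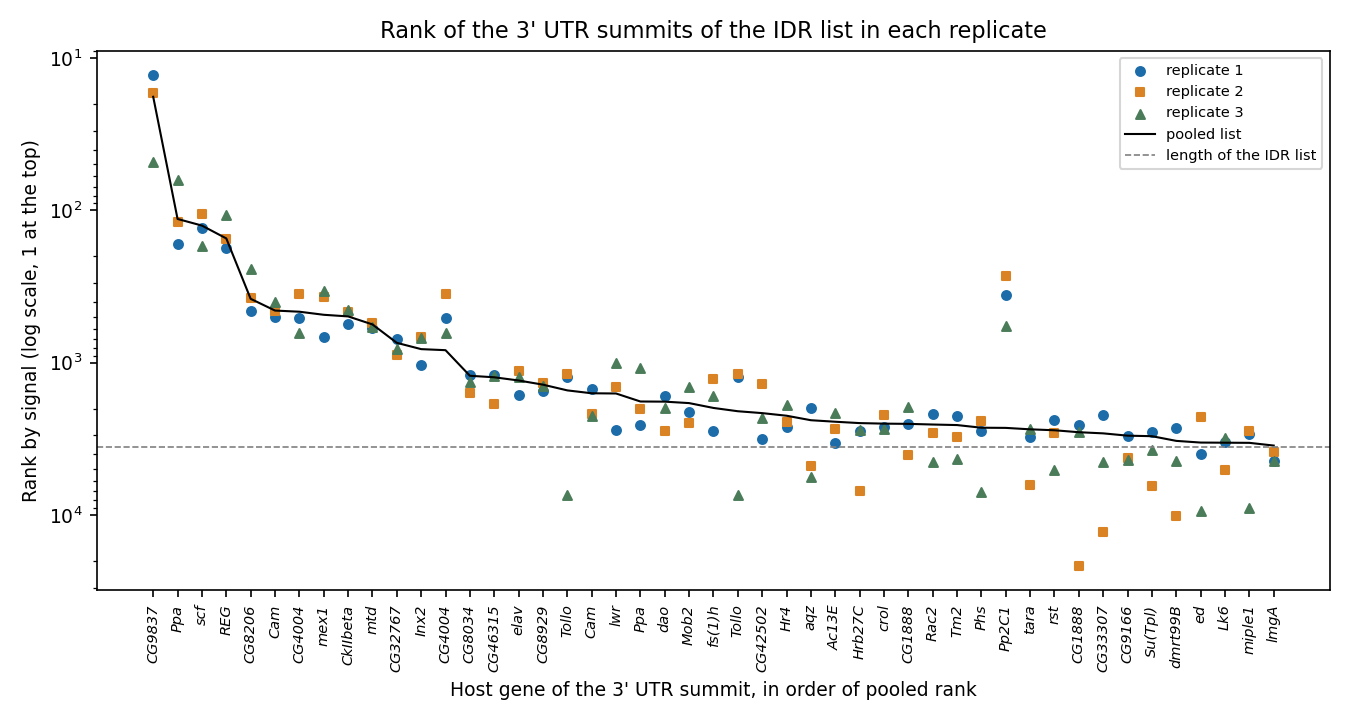
Rank by signal of the 47 3' UTR peaks in the lists of replicates 1 to 3 (points) and in the pooled list (black line), on a log axis with rank 1 at the top. The dashed line is the length of the IDR list, 3567. Replicate points fall below that line only from the stronger Tollo summit, at pooled rank 1520, onward, and the points of Pp2C1 sit far above its pooled rank.

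The remaining 35 peaks had pooled ranks from 828 to 3499, and their host genes have varied roles. Among genes of transcription and chromatin, fs(1)h, which encodes a bromodomain protein, had signal 302 and ranks 2825, 1284 and 1644 in replicates 1 to 3. The nuclear receptor gene Hr4 had signal 275 and ranks 2651, 2460 and 1898. The zinc finger gene crol had signal 250 and ranks 2644, 2199 and 2710. These 3 were supported by every replicate. The peak in Su(Tpl), which encodes an elongation factor, had signal 217 and ranks 2857, 6460 and 3753. The one in dmrt99B, a gene of the doublesex family of transcription factors, had signal 206 and ranks 2666, 10108 and 4390. Both were among the 3567 highest regions of replicate 1 only.

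Genes of RNA-binding proteins gave 2 peaks. elav encodes the RNA-binding protein used as a marker of neurons, and its 3' UTR of 8557 bp was the longest among the 3' UTR peaks. The elav peak had signal 427 and ranks 1633, 1136 and 1251 in replicates 1 to 3, and lay 5085 bp from the coding side. Hrb27C encodes a nuclear RNA-binding protein, and its peak had signal 252 and ranks 2810, 6968 and 2747. It sat at about the middle of a UTR of 6602 bp, with CAGTGT 0.5 bp from the summit, measured to the centre of the run. Each of these genes held further, weaker 3' UTR summits.

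Genes of signalling, adhesion and the cytoskeleton gave a further group. Tollo encodes a Toll-family receptor, and its 2 summits, of signal 379 and 289, fell in a single region of each replicate with ranks 1234, 1187 and 7432. Rac2 encodes a small GTPase of the actin cytoskeleton and had signal 247 and ranks 2177, 2894 and 4507. The immunoglobulin-domain adhesion genes rst and ed had signals of 232 and 202. Ranks were 2371, 2905 and 5084 for rst, and 3946, 2271 and 9383 for ed. In these 4 genes replicate 3 ranked the region lowest. Tm2, which encodes a tropomyosin, had signal 246 and ranks 2250, 3062 and 4295. Ac13E encodes an adenylyl cyclase, and its peak had signal 256 and ranks 3355, 2717 and 2146. Mob2, a cofactor of a protein kinase, had signal 323 and ranks 2102, 2500 and 1455. Lk6, a protein kinase gene, had a peak near the end of the list, with signal 202 and ranks 3308, 5048 and 3131. It was the only 3' UTR peak with 2 matches of CAGTGT.

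The other peaks lay in genes of protein modification or of roles not given here. lwr encodes the SUMO-conjugating enzyme, and its peak had signal 365 and ranks 2751, 1437 and 1008. The peak in lmgA, which encodes a subunit of the anaphase-promoting complex, was the lowest of all, with signal 196 and ranks 4405, 3884 and 4422. Its summit also lies in the UTRs of lmgB and Acer. It was the only one among the 3567 highest regions of no replicate. Second summits in Cam, Ppa and CG4004 had signals of 366, 330 and 635. The last of these shares its region, and so its replicate ranks, with the stronger CG4004 summit. tara, miple1, dao, aqz, Phs, CG8034, CG46315, CG8929, CG42502, CG1888, CG33307 and CG9166 complete the set with Pp2C1. The pooled region of Pp2C1 extends over the start of fzr, 566 bp from the summit. Its replicate ranks of 361, 270 and 578, against a pooled rank of 2679, are those of the highest overlapping region and need not belong to the 3' UTR summit.

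Gene lists of development and signalling are described by their counts. Of the protein-coding genes 588 of 13945 held a 3' UTR summit and 42 a 3' UTR peak. Of 138 transcription factors of embryonic patterning and cell fate, 33 held a summit and 1 a peak, Hr4. Of 55 genes of RNA-binding and translational control 14 held a summit, and 2 a peak, elav and Hrb27C. Of 59 genes of cytoskeleton, adhesion and junctions 9 held a summit and 2 a peak, Rac2 and rst. In the EGF receptor, FGF and ETS list 9 of 30 genes held a summit. The only peak there was that of rst, the adhesion gene already counted in the list before. In the Hippo, insulin, TOR and growth list 9 of 38 held a summit, and Lk6 alone a peak. Of 56 chromatin genes 6 held a summit, and fs(1)h alone a peak. No peak was listed in the Notch and Enhancer of split list (3 of 30 with a summit), the Wingless and Hedgehog list (7 of 37), the Dpp, activin and JAK/STAT list (2 of 30), the axon guidance and neuronal membrane list (11 of 55), or the apoptosis, stress and hormone list (6 of 39). The lists are selections and not whole classes. For example, ed, Tm2, Inx2, crol and dmrt99B have peaks but are in none of them, so the counts hold for the lists only. Genes differ in the length of their UTRs, and no list was tested.

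Most host genes held a single summit, and a few held many. Of the 588 host genes 484 held 1 summit and 104 held 2 or more. aqz and lola held the most, 6 each, with signals of 44.9 to 261 in aqz and 50.3 to 110 in lola. Then came corto, elav, CkIIbeta, CG46320 and CG32767, with 5 each. Of these 7 genes aqz, elav, CkIIbeta and CG32767 had 1 peak, and lola, corto and CG46320 had none. The longest stretch holding one of these summits was 884 bp in lola, whose 6 summits lay in stretches of 350 to 884 bp, and 8557 bp in elav. Peaks lay in 42 genes, 5 of which (CG4004, Cam, Ppa, Tollo and CG1888) held 2 peaks, and 14 of the 42 also held a weaker summit. The peaks of CG9837 and aqz are neighbours: the nearest start downstream of the aqz summit is that of CG9837, 1906 bp away.

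Peaks were spread along the whole UTR. Position was counted from 0 at the coding side to 1 at the 3' end, in the longest annotated UTR stretch that holds the summit. The median was 0.54 for peaks (quartiles 0.33 and 0.78) and 0.53 for weaker summits (0.29 and 0.75). A regular grid of 592522 positions, 1 in every 10 of the 3' UTR bases that meet the same rule, had a median of 0.50. Past the middle lay 25 of 47 peaks (53.2%, 38.1 to 67.9%), 52.7% of weaker summits and 49.7% of grid positions. The first 10% of the stretch held 2 peaks (4.26%, 0.52 to 14.5%) against 9.14% of weaker summits. The last 10% held 3 (6.38%, 1.34 to 17.5%) against 8.43%, and these 3 were in CG8206, Phs and lmgA. With 47 peaks such intervals are wide, and a moderate preference would not be seen.

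The UTRs with a peak had a longer median than those with a weaker summit. The median UTR stretch was 1863 bp at peaks (quartiles 1145 and 2926 bp), 1214 bp at weaker summits (621 and 2565 bp) and 1270 bp over the grid, which already counts a long UTR once for each of its positions. Stretches of 2000 bp or longer held 21 of 47 peaks (44.7%, 30.2 to 59.9%), 34.7% of weaker summits and 35% of grid positions. For the 47 weaker summits next in rank after the list the share was 42.6%, near that of the peaks, while their median stretch was 1183 bp. The interval of the peaks covers all the other shares, and the difference was not tested. Accordingly peaks lay farther from both ends, with a median of 893 bp to the coding side and 762 bp to the 3' end against 588 bp and 496 bp. GC content within 100 bp of the summit had a median of 37.8% for both and 34.8% for the grid.

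**Figure D2:**
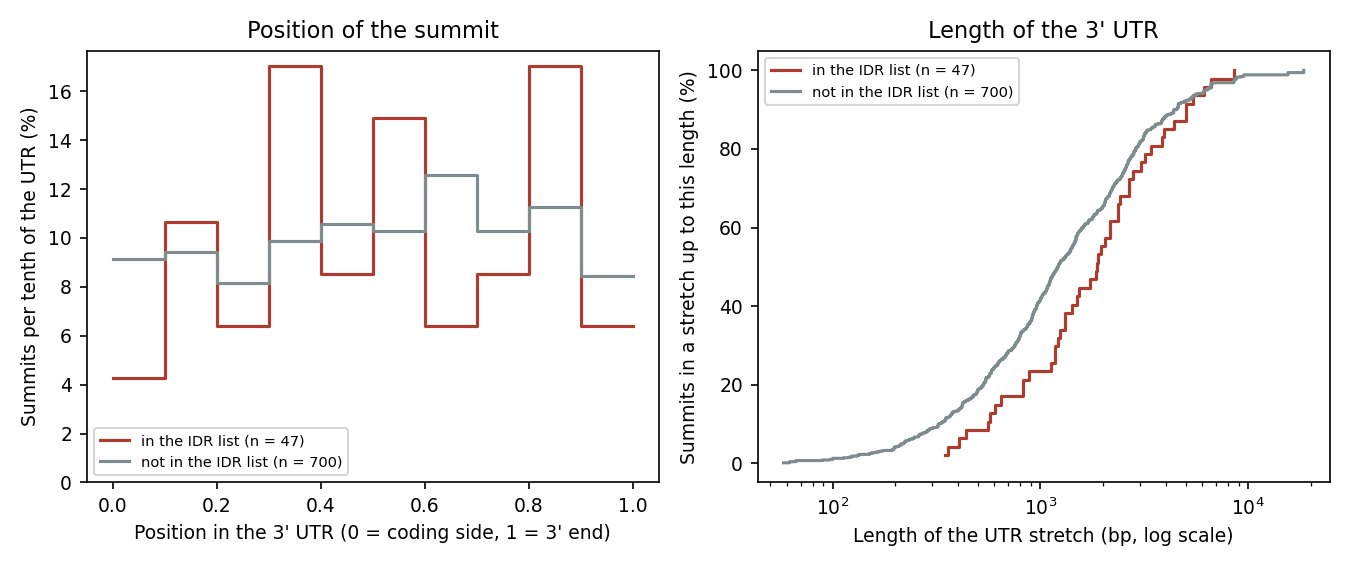
Left, share of summits in each 10% of the 3' UTR, from the coding side (0) to the 3' end (1). Right, cumulative share of summits against the length of the UTR stretch on a log axis. Red is the 47 peaks and grey the 700 weaker summits; positions scatter around an even spread, and the red length curve runs to the right of the grey one, with medians of 1863 bp and 1214 bp.

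Distances to the next gene covered a similar range for peaks and weaker summits. The nearest start of another gene downstream, in the direction of the host gene, was a median of 3335 bp away for peaks and 2986 bp for weaker summits. It was within 2000 bp for 16 of 47 peaks (34.0%, 20.9 to 49.3%), 36.3% of weaker summits (32.7 to 40.0%) and 30.0% of grid positions. That start was on the strand of the host gene for 24 peaks and on the other strand for 23. The nearest cases were fzr, 566 bp beyond the Pp2C1 summit, a snoRNA gene, snoRNA:Me18S-A28a, 579 bp beyond that of CG46315, and CG13454, 703 bp beyond that of mex1. The farthest were the summits of Tollo, 58104 and 57903 bp from Best4, and one of CG1888, 28534 bp from brp. Some 3' UTR peaks lay inside another gene as well: 7 of 47 (14.9%, 6.20 to 28.3%) were in an intron of one, against 8.71% of weaker summits. These were the summits of elav in arg, Rac2 in CG42458, Phs in comm3, rst in kirre, CG33307 in CenG1A, CG9166 in Ptp61F and Su(Tpl) in Mi-2. For these summits the data do not say to which gene the region belongs.

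Many host genes also had a peak at one of their own starts, whether their 3' UTR summit was strong or weak. An IDR-list summit within 500 bp of a start was present for 15 of 42 host genes of peaks (35.7%, 21.6 to 52%) and 155 of 560 host genes of weaker summits (27.7%, 24.0 to 31.6%), against 9.65% of all 13945 protein-coding genes. Among the 46 host genes of the 47 weaker summits next in rank after the list it was 17.4% (7.82 to 31.4%). That interval covers the share of all protein-coding genes. The intervals of the 3 host gene groups overlap, and the groups are not separate. Those next in rank are part of the weaker ones, and 14 genes held both a peak and a weaker summit. Of the 12 strongest peaks those in Ppa, CG4004, mtd, CG32767 and Inx2 were in genes with such a start, while those in CG9837, scf, REG, CG8206, Cam, mex1 and CkIIbeta were not. Genes with many starts and long UTRs offer more room for both, and this was not adjusted for.

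Arm X held the most 3' UTR summits, both peaks and weaker ones. It had 14 of 47 peaks (29.8%, 17.3 to 44.9%) and 31.3% of weaker summits, against 23.5% of eligible 3' UTR bases and 18.2% of the whole IDR list. Arms 3L, 2L, 2R and 3R had 10, 8, 8 and 7 peaks, and arm 4 had 0 summits of either kind on 96.8 kb of eligible UTR.

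Support by replicates was near that of the whole list. A replicate was counted as supporting a peak when one of its own 3567 highest regions overlapped it by at least 1 bp. All 3 replicates supported 28 of 47 3' UTR peaks (59.6%, 44.3 to 73.6%), while 65.3% of the whole IDR list had this support. Another 12 had 2 supporting replicates, 6 had 1 and 1 had 0. Replicate 1 supported 45 of 47, replicate 2 supported 36 and replicate 3 supported 33. Without replicate 3, the share supported by both others was 74.5%. All these lists come from the same 3 libraries, so support describes how the lists relate.

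The spread between replicates was compared on percentiles, which lie close together at the top of a list, so the strongest peaks have a small spread by construction. With rank expressed as a percentile of the replicate list, the smallest spread among peaks supported by all replicates was in CG9837 (99.9 ± 0.064, SD, n = 3), mtd (98.1 ± 0.072), scf (99.6 ± 0.11) and REG (99.5 ± 0.12). The peaks with the worst single rank were one of CG1888, at rank 21432 in replicate 2 against 2558 and 2838 in the others, and CG33307, at 12913 in replicate 2 against 2193 and 4489. Next came dmrt99B, at 10108 in replicate 2, and ed, at 9383 in replicate 3. No 3' UTR peak was missing from a replicate list, and 452 of the 700 weaker summits were missing from at least 1. The IDR list was made from these same libraries, and the share over all pooled summits was not counted. The contrast is therefore not a result about 3' UTRs.

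At the end of the list the peaks blended into the weaker summits. The 4 lowest peaks were ed, Lk6, miple1 and lmgA, with signals of 202, 202, 202 and 196. The 4 highest weaker summits were in CG13334 (signal 188), CG4455 (183), pros (183) and Act5C (177). pros encodes a transcription factor that acts in neural cell fate, and Act5C a cytoplasmic actin. Their ranks in replicates 1 to 3 were 6589, 1925 and 2431 for CG13334, and 5657, 4352 and 3936 for CG4455. Those of pros were 4467, 3974 and 4468, close to the 4405, 3884 and 4422 of lmgA, the last peak. The ranks of Act5C, 5040, 2844 and 6928, show the same overlap with the lowest peaks. The line between the groups is therefore the length of the list and not a gap in the values.

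Strong and weak 3' UTR summits held CAGTGT at different frequencies. It was present within 50 bp of 20 of 47 peaks (42.6%, 28.3 to 57.8%) and 76 of 700 weaker summits (10.9%, 8.65 to 13.4%), against 9.79% of all pooled summits. Windows of the same width centred on the grid positions held it in 3.31% of cases, and flanks 250 to 350 bp from the peaks in 3.19% (0.66 to 9.04%). Its frequency fell along the pooled list in 3' UTRs: 45% of the 20 summits ranked 1 to 1783, 40.7% of the 27 ranked 1784 to 3567, 31.9% of the next 47, 16.4% of the 165 ranked 7135 to 15000, and 6.97% of the 488 below. Outside 3' UTRs the same classes held it in 21.2%, 17.8%, 15.1%, 10% and 5.84% of cases. The share was higher in 3' UTRs in every class. Summits are not replicates, and the run was first noticed with the 3' UTR peaks included, so these differences are a description. Summits outside 3' UTRs include those close to transcription starts, which the rule for members left out. Location in a 3' UTR and distance from a start therefore cannot be told apart in this comparison.

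**Figure D3:**
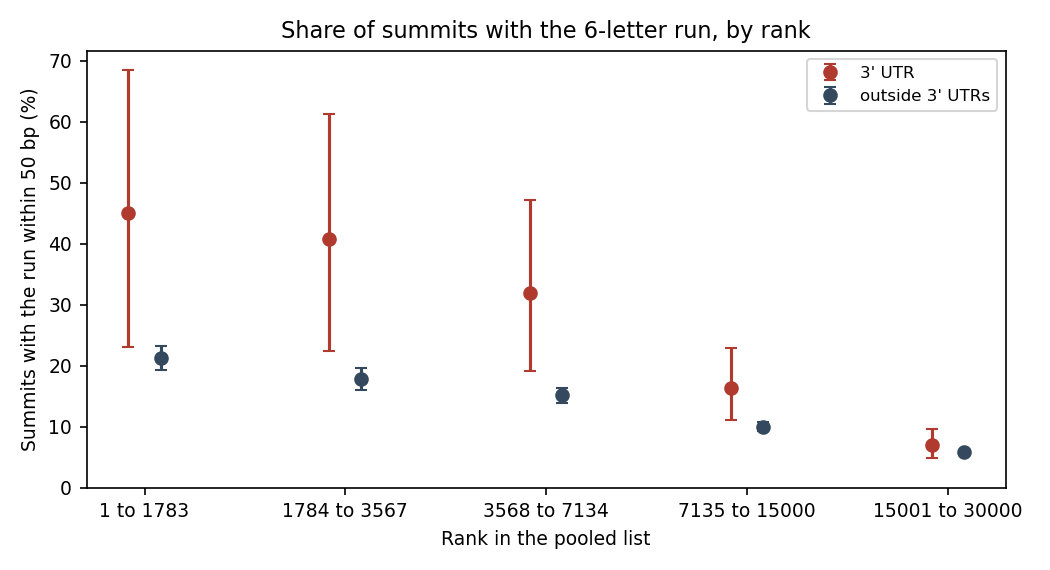
Share of summits with CAGTGT within 50 bp of the summit by rank in the pooled list, in 3' UTRs (red) and elsewhere (dark blue), with exact 95% intervals that cover counting error only. Both fall with rank, from 45% to 6.97% in 3' UTRs and from 21.2% to 5.84% elsewhere.

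The same contrast was present in each replicate taken alone. Among a replicate's own 3' UTR summits, CAGTGT was within 50 bp of 40.4% of those in the 3567 highest and 10.3% of the others in replicate 1, 31.0% and 7.64% in replicate 2, and 35.9% and 8.40% in replicate 3. The difference was 27.0 ± 3.4 percentage points (SD, n = 3), higher in 3 of 3 replicates (exact two-sided sign-flip test, p = 0.25, the smallest possible). Among the 3567 highest summits, it was more frequent in 3' UTRs than elsewhere by 21.0, 12.9 and 17.4 points in replicates 1, 2 and 3, a mean of 17.1 ± 4.0 (SD, n = 3; exact two-sided sign-flip test, p = 0.25). Here too the summits elsewhere include those close to starts, so location in a 3' UTR and distance from a start cannot be told apart. The run was first noticed with these summits included, and the pooled list was made from these same libraries, so the replicates are no independent test of it.

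Distances from summit to match were measured within this window. Among peaks with CAGTGT within 50 bp its centre was a median of 21.5 bp from the summit, and 15 of 20 were within 25 bp. Among weaker summits with the run the median was 20.5 bp, and 46 of 76 were within 25 bp. Matches spread evenly over this window would also have a median near its middle. The share within 25 bp was 75% (50.9 to 91.3%) for peaks and 60.5% (48.65 to 71.6%) for weaker summits. Closeness to the summit within the window was not tested. Closest were Su(Tpl) and Hrb27C at 0.5 bp, and CG32767 at 2.5 bp. CAGTGT read on the strand of the host gene in 5 of 20 peaks (25%, 8.66 to 49.1%) and 27 of 76 weaker summits (35.5%, 24.9 to 47.3%). The 8 strongest peaks held it in 1 case, Ppa, and the other 39 in 19, a split chosen after the values were seen. The related run CAGTGC was within 50 bp of 4 peaks (8.51%), those of mex1, mtd, rst and CG1888, of which mtd also had CAGTGT. It was near 6.71% of weaker summits and 15.9% of IDR-list summits outside 3' UTRs.

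**Figure D4:**
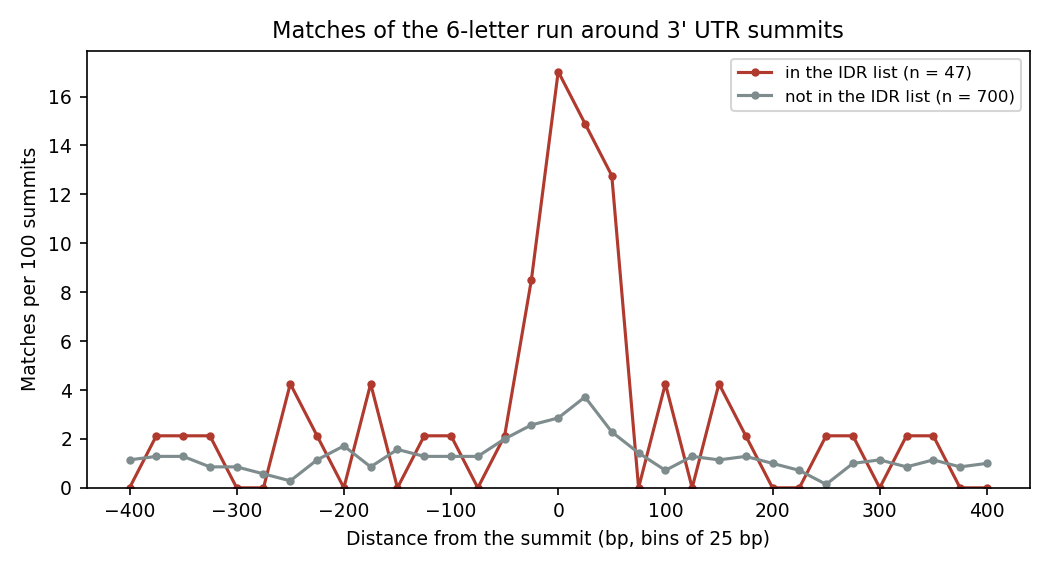
Matches of CAGTGT on either strand per 100 summits, in bins of 25 bp, by distance from the summit along the chromosome. The 47 peaks (red) rise within 50 bp of the summit, to 17 matches per 100 summits in the central bin, and the 700 weaker summits (grey) reach 2.86 there.

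Most matches in 3' UTR DNA had no summit. Eligible 3' UTRs held 2090 matches of CAGTGT, of which 103 (4.93%, 4.04 to 5.95%) lay within 50 bp of a pooled summit and 21 (1.00%, 0.62 to 1.53%) within 50 bp of an IDR-list summit. Summits in and outside 3' UTRs were used for both counts. Matches that read CAGTGTA with TTTT in the 12 bases before were near a pooled summit in 17 of 104 cases (16.3%, 9.82 to 24.9%), and near an IDR-list summit in 9 (8.65%, 4.03 to 15.8%). Those with CAGTGTA alone were near a pooled summit in 38 of 487 cases (7.80%), and those with TTTT alone in 12 of 181 (6.63%). Matches with neither were near one in 36 of 1318 (2.73%, 1.92 to 3.76%). The share was higher with each added feature, yet remained low for the run with both. Both features were picked by reading sequences at the peaks, and the matches at those peaks are among the ones counted. Part of the rise is therefore built in, and it is a description only.

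Other short motifs were counted in the same way. GAGAG, which GAGA factor binds, was within 100 bp of the summit in 15 of 47 peaks (31.9%, 19.1 to 47.1%), 21.7% of weaker summits (18.7 to 25%) and 27.6% of all pooled summits. CACACA was in 27.7% of peaks and 27.0% of weaker summits, against 21.6% of all pooled summits. AATAAA, the letters of the usual poly(A) signal, was in 38.3% and 34.9%, against 35.5%. CGATA, which the insulator protein BEAF binds, was in 23.4% and 24.7%, against 23.3%. ATCGAT, the core of the motif of the promoter factor Dref, was in 0 of 47 peaks (upper bound 7.55%), 5.86% of weaker summits and 7.24% of all. CAGGTA, the core bound by the early embryonic factor Zelda, was in 1 peak (2.13%), 2.86% of weaker summits and 4.92% of all. All were searched on both strands, and a match is a description of letters, not of binding by the named factor.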

How the data were processed

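ChIP-seq region lists of 3 replicates, their pooled list and the IDR list were used. Per the file headers and accompanying notes, each replicate list was made from the replicate's alignment and a control alignment shared by all, on build dm6; the sources used here do not name the aligner, the caller or the IDR threshold. The signal values are those the authors deposited, in no stated unit, so ranks were compared and not levels. The deposited −log10 q-values were not used. Per the labels, chromatin was sheared to 200 to 800 bp.

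Summits were placed on the Ensembl release 115 annotation (BDGP6.54) and the RefSeq Release 6 sequence, the same assembly, on 6 arms, with 23581 starts (transposable elements left out). Counting used Python 3.11.15, pandas 2.3.3, numpy 2.4.6 and scipy 1.17.1, and was checked on simulated data. Intervals are exact (Clopper-Pearson) 95% intervals for counting error. Summits are not replicates, so shares between groups of summits carry no test; the only tests are exact sign-flip tests over the 3 replicates. A member's rank in a replicate is that of the highest region overlapping it. The genes named are all peaks, with fuller values for the 12 strongest, those at the end of the list, the smallest spread of percentile, the worst ranked and those with the most summits. CAGTGT was noticed in a scan that included the members, and it, its neighbouring letters and the tests on it were added after the data were examined. The rule for members and the gene lists were chosen with earlier results of these data known.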

Additional observations from a re-analysis of the deposited data

How the results depend on the processing

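Across 54 alternatives 37 left the value within its interval, or a count within 1.5 times, and 0 reversed a difference tested over replicates. The number of 3' UTR peaks was 20 for the regions ranked 1 to 1783, and 39 to 46 with a replicate left out of a ranking by mean percentile. Support by all replicates was 36.2% and 85.1% with 0.5 and 2 times as many regions per replicate, and 59.6% to 74.5% with a replicate left out. The lower 3' UTR share of the highest summits ran from -1.73 to -1.46 points, and the CAGTGT difference from 25.4 to 28.8 points, with a replicate left out. The median position, 0.54 for peaks against 0.53 for weaker summits, turned to 0.56 against 0.57 in the shortest UTR stretch and 0.54 against 0.60 for those next in rank. A downstream start was within 1000 bp of 10.6% of peaks and 14.3% of weaker summits, within 5000 bp of 61.7% and 66.0%, and for protein-coding starts within 2000 bp of 25.5% and 32.7%. A peak within 1000 bp of a start was present for 45.2% of host genes of peaks and 32.0% of those of weaker summits. Within 50 bp 25.5% of peaks and 11.6% of weaker summits held GAGAG. Peaks held CAGTGT within 100 bp in 46.8%, CAGTGTA in 31.9% and CAGTG in 53.2%. Weaker summits held CAGTGT within 100 bp in 15%, CAGTGTA in 4.86% and CAGTG in 22.7%, and CAGTGT in 31.9% of those next in rank, against 42.6% of peaks. No paired analysis was possible because there is 1 group, with no second group to pair with it; the differences between classes of summits were already taken within each replicate. Few peaks and unknown depth limit precision.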
